A study of Mus musculus with 8 samples.

Results

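The transcriptional response to DMXAA was examined in wild-type mouse islets by comparing the 2 libraries of islets treated with DMXAA with the 2 libraries of islets treated with DMSO. The libraries were chosen by the genotype and agent in their labels and are 4 of the 8 libraries of the study. Islets are small clusters of endocrine cells scattered through the pancreas. They were taken from wild-type mice of 25 to 30 weeks, picked by hand after collagenase digestion, kept overnight in medium and then incubated for 3 h with DMSO, the solvent, or with DMXAA at 50 μg/mL. The other 4 libraries come from islets of Sting-/- mice treated in the same way, 2 with DMSO and 2 with DMXAA. They shared the model fit and are used below only where the wild-type effect is set beside theirs. The labels name no strain, sex or diet, and do not say whether islets of several mice were pooled. The 2 libraries of a group may thus be technical repeats, and the p-values then reflect only how far these libraries vary.

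DMXAA is a synthetic ligand of mouse STING, an adaptor in the membrane of the endoplasmic reticulum that relays the presence of cytosolic DNA through the second messenger cGAMP. Active STING recruits the kinase TBK1, which phosphorylates the transcription factor IRF3, and it also activates NF-kB. The best known outcome is the induction of interferon beta, of interferon-stimulated genes and of cytokines. An islet holds endocrine cells together with a dense capillary bed, pericytes and resident macrophages, and DMXAA is also known as an agent that disrupts tumour vessels in mice. The comparison is described here for genes other than interferon and cytokine genes.

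The wild-type libraries held 18802114 and 18453519 counts with DMSO (DMSO1 and DMSO2) and 18709667 and 18207064 with DMXAA (DMXAA1 and DMXAA2), and the knockout-labelled libraries held 15624020 to 19601850. Levels are given in CPM, counts scaled to library size, in that order of libraries. The islet identity of the wild-type libraries was plain from their hormone mRNAs, with Ins2 between 104193 and 151615 CPM and Gcg between 15226 and 17693 CPM. Sting1 itself was low, at 2.05 and 2.02 CPM with DMSO against 1.24 and 2.03 CPM with DMXAA, and it was no lower in the 4 Sting-/- libraries, which are therefore called knockout-labelled. DMSO1 stood apart from the other wild-type libraries in RNA of cells outside the islet. Its 28 acinar markers summed to 7938 CPM against 1654 to 3460 CPM in the other 3, its 16 fibroblast and stellate cell markers to 391 CPM against 102 to 200 CPM, and its 12 B cell and plasma cell markers to 50.6 CPM against 5.92 to 8.79 CPM. Results that rest on this library are given with and without it below.

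Of 17055 genes tested, 253 (1.48%) passed an adjusted p of 0.05 in edgeR's quasi-likelihood test, 189 of them higher (1.11%) and 64 lower (0.375%) with DMXAA. At an unadjusted p under 0.05 there were 2025 genes (11.9%). A gene that passed is said to have risen or fallen. Every one of the 253 had its 2 DMXAA libraries on one side of its 2 DMSO libraries. Where this is mentioned for single called genes below, it is thus no added support for their calls. The interferon-stimulated and cytokine lists, 250 genes tested, held 122 of the rises and none of the falls. Outside these lists 131 of 16805 genes tested changed, 67 higher and 64 lower, and the response was there close to even in both directions. Of the 16805, 1859 were under an unadjusted p of 0.05. These counts are the background of the pathway lists below, which leave out the members of the interferon and cytokine lists. The median log2 fold change of the rises outside the lists was 1.74 and that of the falls -1.25, while the median over all genes tested was -0.00. The fit was repeated under 17 alternatives, which comprised other scalings, filters, tools and designs and the omission of each library in turn. Of the genes outside the lists, 33 rises and 11 falls passed under all 17. For single genes below, lost calls are given for omitted libraries, and losses under the other alternatives are listed for some genes only. In the fit of the 4 wild-type libraries alone, 143 of the 189 rises and 28 of the 64 falls kept their calls. Over all genes, 126 rises and 42 falls were called without DMSO1, among them 124 of the 189 and 34 of the 64. The count of falls also rested on the other wild-type libraries, with 20 without DMXAA1, 32 without DMXAA2 and 28 in a fit of the 4 wild-type libraries alone, while without DMSO2 there were 536 rises and 458 falls. The rises of the lists are covered here by their leading members alone. Interferon beta (Ifnb1) went from 0 counts in both DMSO libraries to 28.9 and 13.6 CPM, the chemokine Cxcl10 from 7.78 and 2.95 to 574 and 521 CPM and the antiviral enzyme viperin (Rsad2) from 28.4 and 31 to 1446 and 1497 CPM. The plot of all genes by level and change places the 131 other genes against these.

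**Figure D1:**
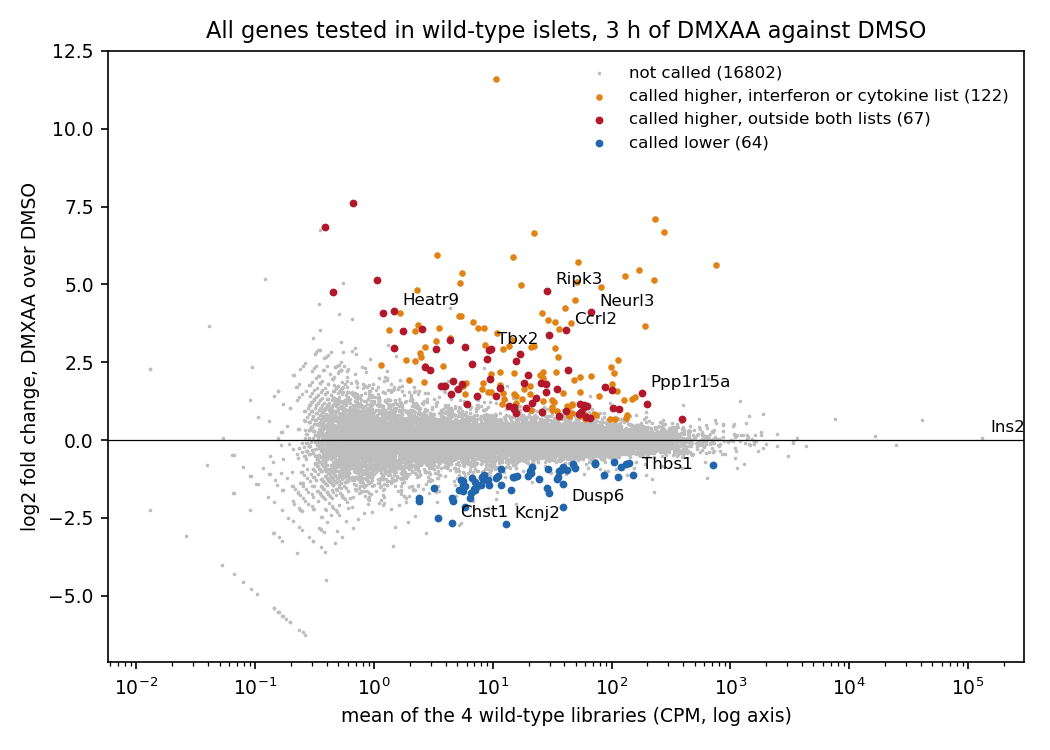
Log2 fold change of DMXAA over DMSO in wild-type islets (y axis) against the mean of the 4 wild-type libraries in CPM (x axis, log scale), 1 point for each of the 17055 genes tested. The 122 genes of the interferon and cytokine lists that rose (orange) reach the largest changes, while the 67 other rises (red) and the 64 falls (blue) lie on both sides of 0, with Ripk3 at 4.80 and Kcnj2 at -2.69; grey points were not called.

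Among genes outside the lists with at least 1 CPM with DMSO, the largest rise was that of Ripk3 (ENSMUSG00000022221, mm10 chromosome 14, 55784995 to 55788865, minus strand), the kinase that drives necroptosis. Ripk3 stood at 2.16 and 1.82 CPM with DMSO and at 69.4 and 41.9 CPM with DMXAA. Its log2 fold change was 4.80 ± 0.30 (SE), a 27.9-fold rise, with an adjusted p of 7.92e-07. Both DMXAA libraries lay far above both DMSO libraries, and DMXAA1 was the higher of them. Neurl3 (ENSMUSG00000047180, chromosome 1, 36264597 to 36274679, minus strand), an E3 ubiquitin ligase of the neuralized family, rose from 8.57 and 6.05 to 141 and 112 CPM, a log2 fold change of 4.11 ± 0.22 (adjusted p = 2.21e-07). Heatr9 (ENSMUSG00000018925, chromosome 11, 83511736 to 83522175, minus strand), a HEAT-repeat protein, was nearly absent with DMSO, at 0.316 and 0 CPM, and reached 3.12 and 2.45 CPM, a log2 fold change of 4.13 ± 0.70 (adjusted p = 0.00327). The atypical chemokine receptor Ccrl2 (chromosome 9, 111054486 to 111057519, minus strand), which binds chemerin without signalling of its own, went from 6.15 and 6.84 to 83.7 and 67 CPM, a change of 3.53 ± 0.21 (adjusted p = 3.89e-07). Rnd1 (chromosome 15, 98663421 to 98677461, minus strand), whose protein loosens the actin skeleton, went from 4.89 and 5.71 to 61.2 and 47.6 CPM, a change of 3.36 ± 0.21 (adjusted p = 7.92e-07). All 5 genes passed in the 17 alternatives, and in none of the 5 did the DMXAA and DMSO libraries overlap. Fitted changes larger than that of Ripk3 outside the lists were limited to Rtp3, Gm5970 and Gm3558, which had 0 or almost 0 counts with DMSO and passed in 13, 3 and 9 of the alternatives.

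The promoters of Ripk3, Heatr9 and Neurl3, the 3 largest of these rises, are shown because they can be read for the elements through which STING signalling is known to act. The sequences are those of RefSeq for GRCm38.p6, 5′ to 3′ on the strand of the gene, from 250 bases before to 50 bases after the start RefSeq gives, which for Neurl3 lies inside the gene as GENCODE annotates it. Ripk3 is at chr14:55788808-55789107 (minus strand), Heatr9 at chr11:83522050-83522349 (minus strand) and Neurl3 at chr1:36273376-36273675 (minus strand). Capitals mark matches to the motifs searched on both strands, an interferon element (AAANNGAAA), a kappa B site (GGANNTTCC), an AP-1 site (TGANTCA), a CRE (TGACGTCA) and a GAS element (TTCNNNGAA).
Ripk3: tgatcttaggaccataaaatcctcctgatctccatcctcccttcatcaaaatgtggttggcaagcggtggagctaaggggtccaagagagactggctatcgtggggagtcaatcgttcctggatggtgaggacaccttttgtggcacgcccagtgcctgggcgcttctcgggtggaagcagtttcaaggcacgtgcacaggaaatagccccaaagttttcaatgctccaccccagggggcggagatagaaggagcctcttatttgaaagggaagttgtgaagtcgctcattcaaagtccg
Heatr9: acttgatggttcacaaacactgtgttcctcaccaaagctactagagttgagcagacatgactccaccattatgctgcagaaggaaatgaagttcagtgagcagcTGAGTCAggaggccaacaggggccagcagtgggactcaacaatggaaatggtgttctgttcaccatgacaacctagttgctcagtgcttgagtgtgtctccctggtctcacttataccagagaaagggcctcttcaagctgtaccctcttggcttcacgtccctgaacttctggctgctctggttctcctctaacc
Neurl3: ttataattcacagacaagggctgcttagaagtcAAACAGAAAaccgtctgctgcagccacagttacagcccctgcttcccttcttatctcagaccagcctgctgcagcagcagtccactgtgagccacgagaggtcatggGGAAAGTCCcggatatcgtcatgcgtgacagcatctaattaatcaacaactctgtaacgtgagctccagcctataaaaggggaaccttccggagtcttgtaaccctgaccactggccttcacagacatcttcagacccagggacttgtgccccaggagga
The Neurl3 window held an interferon element match, AAACAGAAA, 217 bases before the start, and on the opposite strand a kappa B match, GGAAAGTCC, 110 bases before it. The Heatr9 window held an AP-1 match, TGAGTCA, 146 bases before the start. None of the 5 motifs was found in the Ripk3 window, which says only that these letters are not in these 300 bases.

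Several of the rises lay beside genes of the interferon and cytokine lists. Of the 67 rises outside the lists, 11 (16.4%) started within 100 kb of a list gene that had risen. The number was 252 (1.5%) over all 16799 genes outside the lists with a known position, these rises included, and 0 of the 64 falls. Heatr9 started 8.3 kb from the chemokine gene Ccl5, which rose by 1.72 on the log2 scale. Rnf144a, an E3 ubiquitin ligase gene that rose by 1.47, started 41.2 kb from Rsad2. Timeless and Rbms2 started 38.5 and 90.3 kb from the interferon signalling gene Stat2. AW011738, an unnamed protein-coding gene, started 2.5 kb from Isg15 and went from 2.21 and 2.26 to 19.3 and 14.6 CPM. The span of Gm12185 overlaps that of Tgtp1 on the same strand, and how reads were split between these 2 genes is not known. The same holds for Gm5970, which lies within the list gene Gm4951, and for Gm43197, which lies within Gm20559. All of these but the list genes are counted among the 11, and the part of overlapping gene models in that count was not tested. Ripk3 had a risen neighbour outside the lists: Adcy4, an adenylyl cyclase on the same strand whose start is 4.8 kb away and which lies just downstream of Ripk3, went from 11.6 and 10.5 to 41.8 and 36.7 CPM, a change of 1.82 ± 0.19 (adjusted p = 8.79e-05). The other 7 genes tested within 100 kb of Ripk3 were not called, with log2 fold changes from 0.04 to 0.71. Rtp3 and Ccrl2 formed another adjacent pair of rises on chromosome 9, and Rtp3 was counted at 0 in both DMSO libraries and at 1.62 and 1.04 CPM with DMXAA. AW011738, Rbms2, Gm12185, Gm20559, Gm43197, Rtp3 and the low genes above were picked here for their position or fold, after their values were seen. The call of Rnf144a ended without DMSO1 (0.145), DMXAA1 (0.163) or DMXAA2 (0.0764) (the adjusted p without each library in turn is in parentheses, here and below), and that of Rtp3 without DMSO1 (0.128) or DMXAA1 (0.117).

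Some genes that restrain cytokine and NF-kB signalling rose. Of 42 such regulators tested 4 rose and 0 fell, with a median log2 fold change of 0.19. Of them 13 were under an unadjusted p of 0.05, and DESeq2 called 5 higher and 0 lower. Over the 16805 genes outside the interferon and cytokine lists 67 rose and 64 fell, and 1859 were under an unadjusted p of 0.05. Socs1, which blocks Janus kinases below the interferon receptor, went from 0.999 and 1.57 to 11.9 and 8.79 CPM, a log2 fold change of 2.99 ± 0.40 (adjusted p = 0.000788). Tnfaip3, the ubiquitin-editing enzyme A20, went from 15.3 and 14.4 to 76.9 and 63.3 CPM, a change of 2.24 ± 0.18 (adjusted p = 8.88e-06). Nfkbia, the IkB alpha protein that holds NF-kB in the cytoplasm and is itself an NF-kB target, went from 47.3 and 50.7 to 164 and 137 CPM, a change of 1.62 ± 0.15 (adjusted p = 2.47e-05). These 3 passed in all 17 alternatives. Tnip1, the A20-binding protein ABIN1, went from 28.1 and 25 to 47.6 and 43.4 CPM (0.78 ± 0.15, adjusted p = 0.0175), and its call ended without DMXAA1 (0.25) or DMXAA2 (0.105). The NF-kB subunits were not called, with log2 fold changes of 0.34 for Rela, 0.49 for Nfkb2, 0.34 for Relb and 0.13 for Nfkb1. Socs3, another brake on Janus kinases, was at 77 and 108 CPM with DMSO against 79 and 150 CPM with DMXAA, and its libraries overlapped. The core of the STING pathway, 21 genes tested, had no call in either direction by edgeR, DESeq2 or limma-voom, and 3 of its genes were under an unadjusted p of 0.05. This count leaves out 3 further members that the interferon list holds, of which Ifi35 and Samhd1 rose, by 0.97 and 0.78 on the log2 scale, and the sensor Cgas was not called. Without DMSO1 (0.263), DMXAA1 (0.081), DMXAA2 (0.315), knockout-labelled DMSO1 (0.0684) or knockout-labelled DMSO2 (0.07) Ifi35 was not called, and without DMSO1 (0.139), DMXAA1 (0.103) or DMXAA2 (0.248) Samhd1 was not. Among the 21 Tbk1 went from 42.8 and 43.1 to 45.9 and 41.3 CPM and Irf3 from 27.6 and 32.8 to 36.8 and 35.5 CPM, changes of 0.02 ± 0.19 and 0.26 ± 0.16.

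Among 43 genes of programmed cell death tested, 2 rose and 1 fell, with a median log2 fold change of 0.12. Of them 10 were under an unadjusted p of 0.05, against 11.9% of all genes tested. DESeq2 called 3 higher and 1 lower, and limma-voom 2 higher and 0 lower. The background was 67 rises and 64 falls among the 16805 genes outside the interferon and cytokine lists. Beside Ripk3 the rise was in Casp4, the gene of mouse caspase-11, which senses intracellular lipopolysaccharide and starts pyroptosis. Casp4 went from 1.53 and 1.82 to 5.44 and 5.78 CPM, a change of 1.74 ± 0.33 (adjusted p = 0.0136), with no overlap between the groups. Its call ended without DMSO1 (0.139), DMXAA1 (0.0775) or DMXAA2 (0.115). Tnfrsf10b, the mouse death receptor for TRAIL, fell from 12.8 and 10.3 to 5.6 and 5 CPM, a change of -1.12 ± 0.24 (adjusted p = 0.0283), and its call ended without DMSO1 (0.264), DMXAA1 (0.166), DMXAA2 (0.297), knockout-labelled DMSO1 (0.0514) or knockout-labelled DMSO2 (0.0535). Mlkl, the substrate of RIPK3 that breaches the membrane in necroptosis, was counted with the interferon list and rose from 7.68 and 7.08 to 15.8 and 17.3 CPM (1.17 ± 0.23, adjusted p = 0.0163), and its call ended without DMSO1 (0.0935), DMXAA1 (0.0809) or DMXAA2 (0.173). Of the other partners of RIPK3 in the death pathways, Ripk1 and Casp8 were not called. Ripk1 had 43.9 and 37.6 CPM with DMSO against 30.3 and 35.3 CPM with DMXAA, and Casp8 had 14.4 and 10.9 against 12.1 and 13.2 CPM. The libraries of Casp8 overlapped, while those of Ripk1 did not (-0.31 ± 0.15, adjusted p = 0.445).

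Immediate early genes went both ways. Of 45 tested 4 rose and 3 fell, with a median of 0.13, and by DESeq2 5 were higher and 4 lower. The background was 131 calls among the 16805 genes outside the interferon and cytokine lists. Zfp36, which encodes tristetraprolin, a protein that destabilises cytokine mRNAs, went from 35.6 and 47.9 to 133 and 136 CPM, a change of 1.69 ± 0.17 (adjusted p = 5.23e-05). Atf3, a stress-induced transcription factor, went from 39.8 and 36.1 to 76 and 82 CPM (1.06 ± 0.14, adjusted p = 0.00102), and the nuclear protein gene Csrnp1 from 33.7 and 33.8 to 74.2 and 75.9 CPM (1.15 ± 0.16, adjusted p = 0.000982). These 3 passed in every alternative, and no DMXAA library overlapped one with DMSO. The mRNA-binding relative Zfp36l2 rose from 30.3 and 46.7 to 62.3 and 80.4 CPM (0.89 ± 0.20, adjusted p = 0.0438), and its call ended without each library but DMSO2, at adjusted p-values from 0.0602 without DMXAA1 to 0.464 without DMXAA2. Zfp36l2 also missed the threshold in 3 other alternatives. Plk2, a polo-like kinase that p53 also induces, fell from 50.9 and 63.2 to 21.6 and 21.6 CPM, a change of -1.40 ± 0.17 (adjusted p = 0.000349) that passed in all 17 alternatives. Klf10, a TGF-beta inducible zinc finger gene, fell from 51.4 and 44.7 to 22.2 and 25.8 CPM (-1.0 ± 0.16, adjusted p = 0.003) and lost its call without DMXAA1 (0.0955). Sgk1, a kinase induced by serum and glucocorticoids, was the other fall, from 47.5 and 51.1 to 25.8 and 24.5 CPM (-0.97 ± 0.15, adjusted p = 0.00225), and was not called without DMXAA2 (0.07). The classical Fos and Egr1 were not called, at 139 and 157 CPM with DMSO against 201 and 194 CPM with DMXAA for Fos and at 312 and 278 against 262 and 260 CPM for Egr1.

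The integrated stress response, in which phosphorylated eIF2 alpha slows translation, had 2 rises among 36 genes tested and 0 falls, with a median of 0.02. Ppp1r15a, the GADD34 subunit that directs a phosphatase to eIF2 alpha, went from 86.1 and 103 to 305 and 230 CPM, a change of 1.50 ± 0.19 (adjusted p = 0.000485) and the largest gain in CPM among the rises outside the lists after Pdyn. Atf3, given above, was the other. Of the list, 5 of its genes were under an unadjusted p of 0.05, against 11.9% of all genes tested, and DESeq2 called 3 higher and 0 lower. None of 34 endoplasmic reticulum chaperones and 21 heat shock protein genes was called by edgeR, DESeq2 or limma-voom, with 1 and 2 genes under an unadjusted p of 0.05.

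Transcription factor genes were among the rises. Tbx2, a T-box repressor, went from 2.05 and 2.31 to 15 and 17.4 CPM, a change of 2.89 ± 0.27 (adjusted p = 3.29e-05), and the DMXAA libraries were well above those with DMSO. Jdp2, a bZIP factor that dimerises with Jun proteins, went from 3.16 and 4.67 to 18.4 and 12 CPM (1.95 ± 0.32, adjusted p = 0.00425). The homeobox gene Irx3 went from 1.37 and 2.51 to 9.21 and 5.41 CPM (1.90 ± 0.39, adjusted p = 0.0239), and the MADS box factor Mef2c from 11.8 and 10.6 to 23 and 17.9 CPM (0.87 ± 0.20, adjusted p = 0.0494). The call of Jdp2 ended without DMSO1 (0.0714) or DMXAA1 (0.0651), that of Irx3 without DMSO1 (0.275) or DMXAA1 (0.327), and that of Mef2c without DMSO1 (0.15), DMSO2 (0.0757), DMXAA1 (0.616), DMXAA2 (0.0911), knockout-labelled DMSO1 (0.111) or knockout-labelled DMSO2 (0.111). Mef2c also missed the threshold in 6 other alternatives. Irx3 missed it by limma-voom (adjusted p = 0.0514) and in the edgeR fit of the 4 wild-type libraries alone (0.0889).

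The next rises are given together by role for reading only, since no list held them as a group. Plscr2, of the phospholipid scramblase family, went from 3.73 and 4.87 to 30.6 and 28.5 CPM, a change of 2.77 ± 0.22 (adjusted p = 8.14e-06). Stx11, a SNARE protein of granule release in cytotoxic lymphocytes, went from 2.31 and 1.87 to 12.5 and 10.1 CPM (2.43 ± 0.29, adjusted p = 0.000278). Gypc, the glycophorin that ties the membrane to the spectrin skeleton, went from 0.684 and 0.984 to 8.45 and 7.34 CPM (3.22 ± 0.35, adjusted p = 0.000129). Marcksl1, an actin-binding relative of MARCKS, went from 9.68 and 5.56 to 36.2 and 27.9 CPM (2.08 ± 0.25, adjusted p = 0.000283). Adgrl2, the adhesion receptor latrophilin-2, went from 10.9 and 14 to 44.4 and 41.8 CPM (1.79 ± 0.21, adjusted p = 0.000277). Outside these roles Timeless, a replication fork protein, went from 6.1 and 9.89 to 30.4 and 26.8 CPM (1.83 ± 0.25, adjusted p = 0.000902). All 6 passed in every alternative, and their groups were apart. Plscr2 has close relatives, and how the counting split reads between them is not known. Lower and less stable were Themis2, an adaptor of immune cells, at 0.263 and 0.394 CPM with DMSO against 2.26 and 2.91 CPM with DMXAA, and Arhgap28, at 1.05 and 0.738 against 3.77 and 5.26 CPM. Themis2 rose by 2.95 ± 0.49 (adjusted p = 0.0051) and Arhgap28 by 2.33 ± 0.48 (adjusted p = 0.0237). The call of Themis2 ended without DMSO1 (0.0744) or DMXAA2 (0.0628), and that of Arhgap28 without DMSO1 (0.136), DMSO2 (0.0666) or DMXAA2 (0.211).

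Enzymes of metabolism gave single rises. Acod1, which makes itaconate in activated macrophages, went from 0.789 and 0.738 to 5.81 and 5.83 CPM, a change of 2.92 ± 0.37 (adjusted p = 0.000563) that passed in all 17 alternatives. Of the 23 genes for nitric oxide, itaconate and oxidants it was 1 of 2 to rise; Xdh, xanthine dehydrogenase, went from 10.6 and 9.54 to 17.1 and 23.6 CPM (1.01 ± 0.23, adjusted p = 0.0432). The call of Xdh ended without each wild-type library and without each knockout-labelled DMSO library, at adjusted p-values from 0.0549 without DMXAA1 to 0.516 without DMXAA2. Pfkfb3, which makes the activator of glycolysis fructose 2,6-bisphosphate, went from 79.2 and 74.4 to 144 and 162 CPM (1.0 ± 0.17, adjusted p = 0.00505) and lost its call only without DMXAA2 (0.0832). Plin2, the coat protein of lipid droplets, went from 45.1 and 46.3 to 75.6 and 76 CPM (0.73 ± 0.16, adjusted p = 0.0441), with calls lost without DMSO1 (0.193), DMXAA1 (0.271), DMXAA2 (0.277), knockout-labelled DMSO1 (0.052) or knockout-labelled DMSO2 (0.0531). Xdh and Plin2 each missed the threshold in 4 other alternatives as well. In the glycolysis and hypoxia list of 36 genes 1 rose and 1 fell, and in fatty acid metabolism 1 of 33 rose and 0 fell. The medians of these lists were 0.04 and -0.01.

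Single rises were found in genes of surface and secreted proteins, which were not tested as a list. Podxl, the sialomucin podocalyxin of podocytes and endothelium, went from 61.3 and 73.4 to 135 and 140 CPM, a change of 1.03 ± 0.15 (adjusted p = 0.0017). Plat, tissue plasminogen activator, went from 39.7 and 33.9 to 83 and 78.8 CPM (1.14 ± 0.16, adjusted p = 0.00134) and was the 1 rise among 63 matrix proteases and inhibitors tested. Both passed in every alternative. Icam1, the adhesion molecule that binds leukocyte integrins, went from 7.57 and 9.64 to 16.9 and 20.1 CPM (1.10 ± 0.22, adjusted p = 0.019), and its call ended without DMSO1 (0.204), DMXAA1 (0.0606) or DMXAA2 (0.23). Vcam1 and Sele, its partners on activated endothelium, were not called. Vcam1 had 12 and 4.03 CPM with DMSO against 20.6 and 25 CPM with DMXAA, a change of 1.51 ± 0.37 (adjusted p = 0.113), and DESeq2 and limma-voom each called 2 of the 17 adhesion molecules higher. Pdyn, which encodes the opioid precursor prodynorphin, went from 295 and 310 to 502 and 460 CPM (0.67 ± 0.15, adjusted p = 0.0414). Mif, a cytokine-like protein that the cytokine list does not hold and that has near-identical pseudogene copies, went from 87.8 and 159 to 282 and 267 CPM (1.15 ± 0.22, adjusted p = 0.0169). Among the alternatives that kept every library or all wild-type libraries, Pdyn missed the threshold in 3 and Mif in 1. The call of Pdyn ended without DMSO1 (0.156), DMXAA1 (0.442), DMXAA2 (0.191), knockout-labelled DMSO1 (0.112) or knockout-labelled DMSO2 (0.113), and that of Mif without DMXAA1 (0.107), DMXAA2 (0.0751), knockout-labelled DMXAA1 (0.0659) or knockout-labelled DMXAA2 (0.0571).

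**Figure D2:**
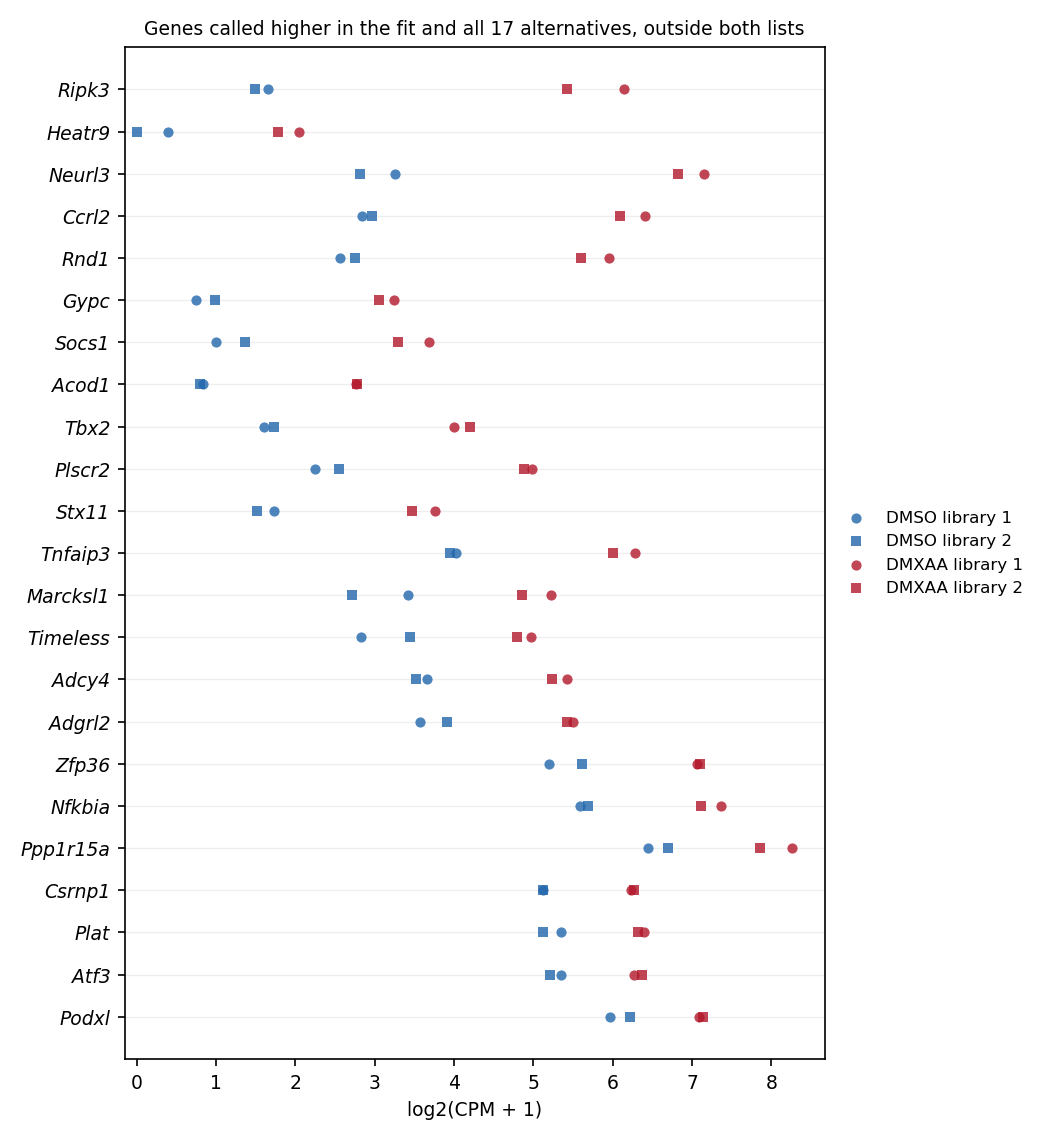
Levels of 23 named genes outside the interferon and cytokine lists that rose and passed in all 17 alternatives, as log2(CPM + 1) on the x axis, 1 row per gene ordered by fold change, with circles and squares for the 2 libraries of DMSO (blue) and DMXAA (red). In every row both red points lie to the right of both blue points, as in every called rise, and the gap narrows from Ripk3 (4.80) to Podxl (1.03).

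The 64 falls reached genes of vessels, ion transport and growth signalling. Their summed level was 3500 and 3364 CPM with DMSO against 1720 and 1753 CPM with DMXAA, and none stood below 1 CPM with DMSO. The largest fall was in Kcnj2 (ENSMUSG00000041695, chromosome 11, 111066164 to 111076821, plus strand), the inward rectifier channel Kir2.1 that sets the resting potential of endothelial and muscle cells. Kcnj2 had 22.1 and 22.4 CPM with DMSO against 2.53 and 4.32 CPM with DMXAA, a log2 fold change of -2.69 ± 0.35 (adjusted p = 0.00115). The DMSO libraries were nearly equal and both DMXAA libraries lay far below them. Chst1 (ENSMUSG00000027221, chromosome 2, 92599707 to 92615250, plus strand), a sulfotransferase of keratan sulfate and related glycans, went from 7.52 and 8.02 to 0.915 and 1.51 CPM, a change of -2.67 ± 0.36 (adjusted p = 0.000858). Dusp6 (ENSMUSG00000019960, chromosome 10, 99263231 to 99267489, plus strand), the phosphatase that switches off ERK and whose transcription follows ERK activity, went from 61.1 and 66.8 to 11.4 and 17.3 CPM, a change of -2.16 ± 0.20 (adjusted p = 3.29e-05). Kcnj2, Chst1 and Dusp6 passed in all 17 alternatives.

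The promoters of Kcnj2 and Chst1 are printed because these were the 2 largest falls by fold. Kcnj2 is at chr11:111065914-111066213 (plus strand) and Chst1 at chr2:92600867-92601166 (plus strand), in RefSeq's sequence of GRCm38.p6, and the start RefSeq gives for Chst1 lies inside the gene as GENCODE annotates it. No letters are in capitals, since none of the 5 motifs was found in either window.
Kcnj2: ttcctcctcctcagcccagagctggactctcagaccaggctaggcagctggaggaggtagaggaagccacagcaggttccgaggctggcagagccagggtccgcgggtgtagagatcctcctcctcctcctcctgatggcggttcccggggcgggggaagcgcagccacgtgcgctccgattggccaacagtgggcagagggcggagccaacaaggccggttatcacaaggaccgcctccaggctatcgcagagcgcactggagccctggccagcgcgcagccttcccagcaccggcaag
Chst1: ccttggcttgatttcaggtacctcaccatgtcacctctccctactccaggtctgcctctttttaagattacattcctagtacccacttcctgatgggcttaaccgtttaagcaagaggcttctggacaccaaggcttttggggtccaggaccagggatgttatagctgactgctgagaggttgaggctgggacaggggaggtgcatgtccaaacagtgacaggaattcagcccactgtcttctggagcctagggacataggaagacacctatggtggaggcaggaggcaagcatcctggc
Over the sets, the share of promoter windows with the interferon element was 20.8% of the 53 rises outside the lists that had a RefSeq promoter, 62% of 92 rises in the lists, 19.1% of 47 falls and 8% of 11813 genes tested. The kappa B motif was found in 13.2%, 16.3%, 2.13% and 4.56% of the same sets, and in 10.5% and 4.26% of all 32817 promoter windows in the table for the interferon element and kappa B in turn. Among the rises outside the lists the kappa B matches were in Neurl3, Ccrl2, Acod1, Tnfaip3, Nfkbia, Rbms2 and Icam1, and Neurl3 and Acod1 held both motifs. The 1 fall with a kappa B match was Dusp6. A match is a run of letters and not a measured binding site.

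Other genes that report on ERK activity were not called with Dusp6. It was the 1 fall among 28 ERK feedback genes tested and 0 rose, with a median of -0.04. Of the 28, 5 genes were under an unadjusted p of 0.05, against 11.9% of all genes tested. The Sprouty genes Spry1 and Spry2 and the factor Etv1 had log2 fold changes of -0.66, -0.51 and -0.37 and were not called, and Dusp5 and Dusp4 stood at -0.01 and 0.01. The other two falls among potassium channel genes, of 63 tested, were smaller. Kcnk5, the two-pore channel TASK-2, went from 9.99 and 11.9 to 3.82 and 3.95 CPM (-1.49 ± 0.24, adjusted p = 0.00379), and the ancillary subunit Kcne3 from 4.05 and 3.59 to 0.646 and 1.3 CPM (-1.96 ± 0.44, adjusted p = 0.0417). The call of Kcnk5 ended without DMXAA1 (0.0587) or DMXAA2 (0.0506), and that of Kcne3 without DMSO1 (0.258), DMXAA1 (0.433), DMXAA2 (0.0844), knockout-labelled DMSO1 (0.0668) or knockout-labelled DMSO2 (0.07). Kcne3 also missed the threshold in 4 other alternatives, among them limma-voom (adjusted p = 0.101). No potassium channel gene rose, and the median of the list was 0.02. Chst1 was joined by Chst2, another carbohydrate sulfotransferase, at 11.7 and 14.2 against 3.88 and 6.71 CPM (-1.29 ± 0.27, adjusted p = 0.0255), and by the polysialyltransferase St8sia4 at 12.1 and 7.82 against 3.28 and 2.81 CPM (-1.70 ± 0.34, adjusted p = 0.0192). These were the 3 falls among 101 sulfotransferases and glycosyltransferases. Chst2 was not called in the edgeR fit of the 4 wild-type libraries alone (adjusted p = 0.132), and St8sia4 not by limma-voom (0.0569). The call of Chst2 ended without DMSO1 (0.0718), DMSO2 (0.0586), DMXAA1 (0.369), knockout-labelled DMSO1 (0.0652) or knockout-labelled DMSO2 (0.0671), and that of St8sia4 without DMSO1 (0.271), DMXAA1 (0.109) or DMXAA2 (0.198).

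Vascular peptides and their receptors held the most falls of any list. Of 46 tested 7 fell and 0 rose, against 64 falls among the 16805 genes outside the interferon and cytokine lists. The median log2 fold change was -0.47, 26 were under an unadjusted p of 0.05, and DESeq2 called 9 lower. Edn1, which encodes the vasoconstrictor endothelin-1, went from 8.31 and 10.6 to 1.29 and 2.97 CPM, a change of -2.14 ± 0.32 (adjusted p = 0.00206). Apln, the endothelial peptide apelin, went from 4.94 and 6.84 to 0.646 and 1.41 CPM (-2.51 ± 0.40, adjusted p = 0.00396). Esm1, the proteoglycan endocan of angiogenic endothelium, went from 159 and 151 to 65.7 and 71.4 CPM (-1.18 ± 0.15, adjusted p = 0.000421). Thbs1, the matrix protein thrombospondin-1, which restrains vessel growth, went from 219 and 198 to 90.1 and 102 CPM (-1.12 ± 0.17, adjusted p = 0.00225). Both members that favour and members that restrain vessel growth were thus among the falls. Edn1 and Esm1 passed in all 17 alternatives, Apln lost its call without DMXAA1 (0.0654) and Thbs1 without DMXAA1 (0.0637). The receptors followed with smaller changes: Kdr, the main VEGF receptor of endothelium, went from 166 and 185 to 101 and 108 CPM (-0.75 ± 0.15, adjusted p = 0.0169), and the endothelin receptor Ednrb from 134 and 127 to 79.6 and 80.3 CPM (-0.70 ± 0.14, adjusted p = 0.016). The angiotensin-converting enzyme gene Ace was the seventh, from 10.7 and 12.5 to 5.87 and 3.69 CPM (-1.28 ± 0.25, adjusted p = 0.0169). Kdr, Ednrb and Ace were not called in the edgeR fit of the 4 wild-type libraries alone (adjusted p = 0.0612, 0.0643 and 0.0964). The call of Kdr ended without DMXAA1 (0.287), DMXAA2 (0.165), knockout-labelled DMSO1 (0.0668) or knockout-labelled DMSO2 (0.0688), that of Ednrb without DMSO1 (0.0744), DMXAA1 (0.237), DMXAA2 (0.219), knockout-labelled DMSO1 (0.0668) or knockout-labelled DMSO2 (0.0683), and that of Ace without DMXAA2 (0.294). Outside this list Bdkrb2, the bradykinin B2 receptor, went from 9.63 and 11 to 3.77 and 3.17 CPM (-1.57 ± 0.23, adjusted p = 0.00177), a fall that passed in all alternatives.

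Some genes of the signals that pattern vessels also fell. The background was 64 falls among the 16805 genes outside the interferon and cytokine lists. Unadjusted p-values under 0.05 were reached by 9 of 29 Notch genes, 20 of 47 BMP and TGF-beta genes and 5 of 39 Wnt genes. The share over all genes tested was 11.9%. Among 29 Notch genes tested 3 fell and 0 rose: the ligand Dll4 of endothelial tip cells, at 31.6 and 44.2 CPM with DMSO against 20.2 and 19.5 CPM with DMXAA, the ligand Jag1, at 20.8 and 20.2 against 7.32 and 10.5 CPM, and the target gene Hey1, at 11 and 9.35 against 4.2 and 3.85 CPM. Their log2 fold changes were -0.93 ± 0.21, -1.20 ± 0.22 and -1.34 ± 0.25, with adjusted p-values of 0.0421, 0.01 and 0.0108. The call of Dll4 ended without DMSO2 (0.0937), DMXAA1 (0.247), DMXAA2 (0.307), knockout-labelled DMXAA1 (0.0661) or knockout-labelled DMXAA2 (0.0671), that of Jag1 without DMSO1 (0.0785) or DMXAA1 (0.196), and that of Hey1 without DMSO1 (0.0945), DMXAA1 (0.0858) or DMXAA2 (0.146). Dll4 and Jag1 were not called in the edgeR fit of the 4 wild-type libraries alone (adjusted p = 0.0887 and 0.0551), and Dll4 not by limma-voom (0.0747). Dll1, another Notch ligand, had a change of 0.74 ± 0.20 and was not called. Of 47 BMP and TGF-beta genes 4 fell and 0 rose, with a median of -0.22. Smad6, the inhibitory Smad that BMP signalling induces, went from 28.1 and 40.2 to 14.2 and 14.5 CPM (-1.25 ± 0.20, adjusted p = 0.00298) in all alternatives. Its upstream receptor Acvrl1, the ALK1 kinase of endothelium, went from 20.3 and 21.6 to 9.8 and 8.43 CPM (-1.20 ± 0.19, adjusted p = 0.00275), the co-receptor endoglin (Eng) from 149 and 185 to 93.6 and 104 CPM (-0.76 ± 0.15, adjusted p = 0.019) and the target Id1 from 13.8 and 13.3 to 3.39 and 6.4 CPM (-1.46 ± 0.27, adjusted p = 0.01). Receptor, co-receptor, target and inhibitor of this pathway were thus among the falls. Eng and Id1 were not called in the edgeR fit of the 4 wild-type libraries alone (adjusted p = 0.0889 and 0.0857). The call of Acvrl1 ended without DMXAA2 (0.0779), that of Eng without DMXAA1 (0.338), DMXAA2 (0.145), knockout-labelled DMSO1 (0.0661) or knockout-labelled DMSO2 (0.0678), and that of Id1 without DMSO1 (0.0697) or DMXAA1 (0.153). Fzd4, the receptor for Norrin and Wnt in retinal and other vessels, was the 1 fall among 39 Wnt genes, from 21.8 and 21 to 6.68 and 7.55 CPM (-1.59 ± 0.24, adjusted p = 0.00224), and passed in all alternatives.

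Genes of transcription factors, a gap junction protein, receptors and guidance signals were among the other falls. Which islet cells these transcripts came from was not tested. Gja1, the gap junction protein connexin 43, went from 41 and 48.9 to 10.8 and 17 CPM, a change of -1.69 ± 0.22 (adjusted p = 0.000783), and was the 1 fall among 44 connexins and junction genes. Cxcr4, the receptor of the chemokine CXCL12, went from 17 and 16.9 to 6.24 and 6.14 CPM (-1.45 ± 0.19, adjusted p = 0.000661). Both passed in all alternatives. Sox18, a Sox factor of endothelium, went from 5.63 and 9.2 to 2.05 and 1.77 CPM (-1.96 ± 0.33, adjusted p = 0.0051) and Egfl7, a secreted endothelial protein, from 33.5 and 50.7 to 12.4 and 16.7 CPM (-1.53 ± 0.23, adjusted p = 0.00235). The call of Sox18 ended without DMXAA2 (0.0776) and that of Egfl7 without DMXAA1 (0.0503). Epas1, the hypoxia factor HIF-2 alpha, fell from 57.8 and 60.9 to 32.1 and 36.8 CPM (-0.78 ± 0.14, adjusted p = 0.0105), and Sema6d, a guidance semaphorin, from 121 and 115 to 49.7 and 59.8 CPM (-1.11 ± 0.19, adjusted p = 0.00545). Epas1 lost its call without DMXAA1 (0.264) or DMXAA2 (0.0787) and Sema6d without DMSO1 (0.0542) or DMXAA1 (0.118). The ephrin Efna1 went from 17.5 and 12 to 4.74 and 7.96 CPM (-1.21 ± 0.26, adjusted p = 0.0351), and the ephrin receptor Epha2 from 7.73 and 10.9 to 3.66 and 4.32 CPM (-1.22 ± 0.27, adjusted p = 0.0388). They and Sema6d were the 3 falls among 57 ephrins and semaphorins. Epas1, Efna1 and Epha2 were not called in the edgeR fit of the 4 wild-type libraries alone (adjusted p = 0.0619, 0.204 and 0.121). The call of Efna1 ended without DMSO1 (0.416), DMXAA1 (0.444), knockout-labelled DMSO1 (0.0793), knockout-labelled DMSO2 (0.0798), knockout-labelled DMXAA1 (0.0538) or knockout-labelled DMXAA2 (0.0589), and that of Epha2 without DMSO2 (0.0844), DMXAA1 (0.365), DMXAA2 (0.177), knockout-labelled DMSO1 (0.0609), knockout-labelled DMSO2 (0.0603), knockout-labelled DMXAA1 (0.051) or knockout-labelled DMXAA2 (0.0531).

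Other endothelial genes and a few regulators completed the larger falls. Clec14a, a C-type lectin of endothelium, went from 4.16 and 3.44 to 0.915 and 1.14 CPM (-1.87 ± 0.38, adjusted p = 0.02), and the membrane protein gene Tmem204 from 9.94 and 10.3 to 1.72 and 3.8 CPM (-1.87 ± 0.31, adjusted p = 0.00514). Myct1 went from 9.94 and 13.3 to 4.95 and 3.54 CPM (-1.45 ± 0.25, adjusted p = 0.00663) and Exoc3l2 from 6.73 and 10.4 to 2.85 and 3.28 CPM (-1.48 ± 0.28, adjusted p = 0.0121). In these 4 genes the groups did not overlap, as in every called gene. None of the 4 was called in the edgeR fit of the 4 wild-type libraries alone (adjusted p = 0.071, 0.0612, 0.0591 and 0.084 in that order). The call of Clec14a ended without DMSO1 (0.161), DMXAA1 (0.228) or DMXAA2 (0.133), that of Tmem204 without DMXAA1 (0.077), that of Myct1 without DMXAA2 (0.145), and that of Exoc3l2 without DMXAA1 (0.156) or DMXAA2 (0.0892). Gda, a guanine deaminase, Il7r, the interleukin-7 receptor, and the factors Runx1 and Ets1 fell with adjusted p-values between 0.0169 and 0.0462. Their calls held in 12, 7, 4 and 7 of the 17 alternatives. That of Gda ended without DMSO1 (0.249), DMXAA1 (0.121) or DMXAA2 (0.173), and that of Il7r without DMSO1 (0.529), DMXAA1 (0.25), DMXAA2 (0.266), knockout-labelled DMSO1 (0.0943) or knockout-labelled DMSO2 (0.0968). The call of Runx1 ended without DMSO1 (0.444), DMXAA1 (0.508), DMXAA2 (0.0587), knockout-labelled DMSO1 (0.0812), knockout-labelled DMSO2 (0.0811), knockout-labelled DMXAA1 (0.0531) or knockout-labelled DMXAA2 (0.0565), and that of Ets1 without DMSO1 (0.0785), DMSO2 (0.0706), DMXAA1 (0.439), DMXAA2 (0.239), knockout-labelled DMSO1 (0.1) or knockout-labelled DMSO2 (0.103).

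**Figure D3:**
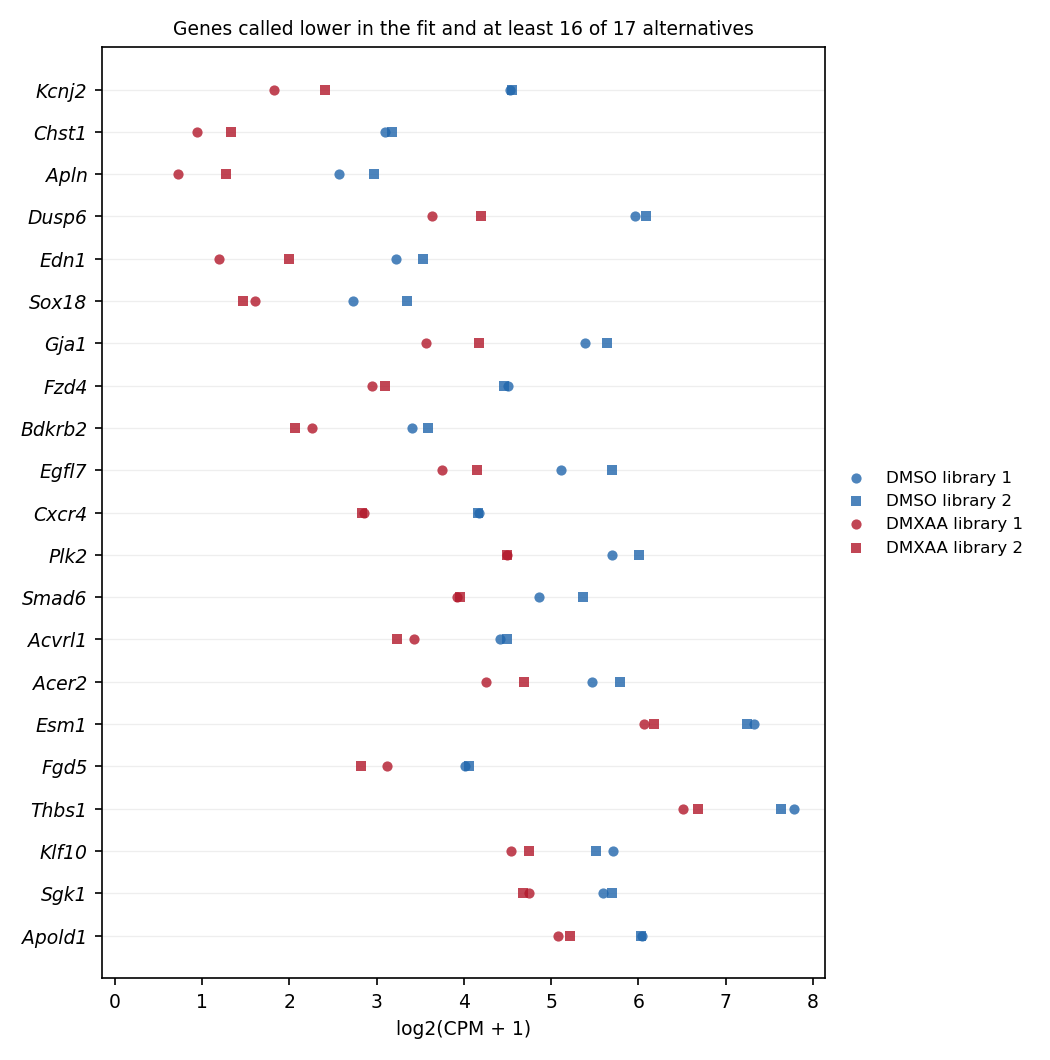
Levels of the 21 genes that fell and passed in at least 16 of the 17 alternatives, as log2(CPM + 1) on the x axis, 1 row per gene ordered by fold change, with circles and squares for the 2 libraries of DMSO (blue) and DMXAA (red). Both red points lie to the left of both blue points in every row, as in every called fall, from Kcnj2 (-2.69) to Apold1 (-0.90). Acer2, Fgd5, Sgk1 and Apold1 appear by their stability alone.

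The general markers of endothelium were read as a list, which was chosen like the others with earlier results of these data known. Esm1, Kdr and Eng are counted again in it after the vascular and BMP lists. Of 23 endothelial markers tested 6 fell (Esm1, Egfl7, Sox18, S1pr1, Kdr and Eng) and 0 rose, 21 had a negative fold change, and the median was -0.41. Of the 23 genes 13 were under an unadjusted p of 0.05, and DESeq2 called 7 lower. Their summed level was 1278 and 1530 CPM with DMSO against 948 and 984 CPM with DMXAA, so the groups did not overlap. S1pr1, the sphingosine 1-phosphate receptor of endothelium, went from 59.8 and 51.8 to 27.5 and 29.7 CPM (-0.96 ± 0.17, adjusted p = 0.00966), and its call ended without DMSO1 (0.106), DMXAA1 (0.156) or DMXAA2 (0.0881). The 17 markers that were not called ranged from -1.33 for Sox17, an endothelial Sox factor, through -0.93 for Erg, -0.61 for Tek, -0.52 for Flt1 and -0.51 for Esam to 0.20 for Cldn5. Cdh5, the VE-cadherin that defines endothelial junctions, was at 70.6 and 95.4 CPM with DMSO against 71.8 and 75.3 CPM with DMXAA, with overlapping libraries and a change of -0.17 ± 0.17. Pecam1 had 68.8 and 77.9 against 61.8 and 64.9 CPM (-0.21 ± 0.14), Plvap 102 and 165 against 121 and 121 CPM (-0.14 ± 0.19) and Tie1 27.2 and 36.9 against 29.9 and 29.9 CPM (-0.10 ± 0.18), none of them called. In RNA of whole islets, fewer cells of a type and less RNA per cell cannot be told apart. The part of endothelial cell number in the vascular falls was not tested. Pericyte markers, 11 tested with 0 calls, had a median of -0.44, with sums of 149 and 158 CPM with DMSO against 125 and 128 CPM with DMXAA, and 4 under an unadjusted p of 0.05. Fibroblast and stellate cell markers, 16 tested with 0 calls, had a median of -0.64 and sums of 391 and 158 CPM against 102 and 200 CPM, which overlapped, with 2 under an unadjusted p of 0.05. DESeq2 and limma-voom called none of the markers of either type.

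Of 20 macrophage markers 1 fell and 0 rose, and 7 had a positive fold change. It is described with 4 other falls known from myeloid cells, which were put together after the calls were seen. Csf2rb, the shared receptor chain of GM-CSF, IL-3 and IL-5, went from 9.1 and 5.02 to 1.72 and 2.13 CPM, a change of -1.86 ± 0.36 (adjusted p = 0.0169). Its neighbour Csf2rb2, the IL-3 receptor chain, went from 4.89 and 4.58 to 1.62 and 1.61 CPM (-1.55 ± 0.31, adjusted p = 0.0199), and since the 2 genes are near-identical, how reads were split between them is not known. Itgax, the integrin CD11c, went from 8.21 and 7.18 to 2.96 and 3.38 CPM (-1.27 ± 0.25, adjusted p = 0.0166). Slc11a1, the metal transporter of phagosomes, went from 8.42 and 7.53 to 3.01 and 3.38 CPM (-1.31 ± 0.26, adjusted p = 0.0201), and Gpnmb, a glycoprotein of lipid-laden macrophages, from 13.8 and 7.43 to 3.07 and 3.9 CPM (-1.60 ± 0.30, adjusted p = 0.0121). All 5 were lower in both DMXAA libraries than in either DMSO library, as was every called fall. None of the 5 was called in the edgeR fit of the 4 wild-type libraries alone, at adjusted p-values from 0.0674 for Slc11a1 to 0.116 for Gpnmb. The calls depended on DMSO1: without it the adjusted p was 0.249 for Csf2rb, 0.136 for Csf2rb2, 0.136 for Itgax, 0.146 for Slc11a1 and 0.151 for Gpnmb. They also ended without DMXAA1, at 0.182, 0.186, 0.223, 0.228 and 0.157, and without DMXAA2, at 0.0987, 0.191, 0.122, 0.145 and 0.0612. Without either knockout-labelled DMSO library Csf2rb2 reached 0.0519 and 0.0527, and Slc11a1 0.0501 and 0.0512. The call among the macrophage markers was Itgax, and the list had a median of -0.52, with sums of 161 and 116 CPM with DMSO against 103 and 104 CPM with DMXAA. Adgre1, the F4/80 antigen, was at 6.68 and 4.23 against 2.15 and 2.65 CPM (-1.17 ± 0.36, adjusted p = 0.218), Cd68 at 12.5 and 14.3 against 13.3 and 13.7 CPM (0.01 ± 0.21) and C1qa at 12.4 and 17.7 against 19.9 and 21.6 CPM (0.46 ± 0.40). Of the 20 markers 13 had a negative fold change, and 7 were under an unadjusted p of 0.05, against 11.9% of all genes tested. Beside Itgax and Adgre1 these were Lyz2 (-2.05), Csf1r (-1.16) and Laptm5 (-0.87), which were lower, and Cd14 (0.93) and Mertk (0.77), which were higher. The markers thus pointed in both directions, most of them lower, and the part of macrophage number in the myeloid falls was not tested.

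A pair of mitochondrial transcripts and a metallothionein fell in the wild type. mt-Nd4, a complex I subunit encoded by mitochondrial DNA, went from 998 and 829 to 555 and 489 CPM, a change of -0.81 ± 0.18 (adjusted p = 0.0425), and the ribosomal RNA mt-Rnr2 from 179 and 132 to 91.4 and 78.6 CPM (-0.88 ± 0.18, adjusted p = 0.0202). All 12 mitochondrially encoded mRNAs tested had a negative fold change, with a median of -0.55, 1 of them called by edgeR and 3 by DESeq2. The 85 nuclear subunits of the respiratory chain lay the other way, 66 with a positive fold change and a median of 0.28, but none was called by edgeR or limma-voom, DESeq2 called 3 higher, and 16 were under an unadjusted p of 0.05. Mt2, a metal-binding metallothionein, went from 31.3 and 23.4 to 14.5 and 10.4 CPM (-1.14 ± 0.20, adjusted p = 0.00908). The call of mt-Nd4 ended without DMSO1 (0.28), DMXAA1 (0.203), DMXAA2 (0.457), knockout-labelled DMSO1 (0.0768) or knockout-labelled DMSO2 (0.0775), that of mt-Rnr2 without DMSO1 (0.215), DMXAA1 (0.0982), DMXAA2 (0.306), knockout-labelled DMSO1 (0.0514) or knockout-labelled DMSO2 (0.0527), and that of Mt2 without DMSO1 (0.117) or DMXAA2 (0.185). Among the other alternatives, mt-Nd4 also missed the threshold in 2, mt-Rnr2 in 1 and Mt2 in 1. In the knockout-labelled islets the median of the mitochondrial mRNAs was -0.48.

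None of the genes in the endocrine lists was called by edgeR. Of 17 beta cell markers, 17 markers of alpha, delta, PP and epsilon cells, 35 islet transcription factors and 53 genes of glucose sensing, granule release and prohormone processing, none passed in edgeR or limma-voom, and DESeq2 called 1 gene, in the last list. Unadjusted p-values under 0.05 were reached by 2, 2, 4 and 9 of them, against 11.9% of all genes tested. With 1.48% of all genes called, lists of this size would hold few calls. Their absence therefore does not show that the endocrine programme was unchanged. Ins1 was at 33229 and 30874 CPM with DMSO against 56102 and 43413 CPM with DMXAA, a change of 0.63 ± 0.30 (adjusted p = 0.43), and Ins2 at 151615 and 104193 against 146922 and 120705 CPM (0.07 ± 0.31). Gcg had 16055 and 15226 against 16277 and 17693 CPM (0.12 ± 0.21) and Sst 861 and 920 against 1228 and 1221 CPM (0.46 ± 0.21). The beta cell factor Mafa was at 563 and 874 against 1178 and 838 CPM (0.49 ± 0.27) and Pax6 at 313 and 362 against 361 and 381 CPM (0.14 ± 0.15). None of these 6 changes passed the test.

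Over all 45 pathway lists 28 had at least 1 call and 17 had none. The 17 held 828 genes, of which 94 (11.4%) were under an unadjusted p of 0.05, against 11.9% of all genes tested, and 12 of the 17 also had no call by DESeq2 and all 17 none by limma-voom. Among them were proteasome subunits, autophagy and lysosome genes, sterol synthesis, ribosomal proteins, translation factors, histones, the cell cycle and the circadian clock. Of the 15 cell type lists 2 had calls, endothelium and macrophages, both downward. The plot of calls per list shows how the rises and falls were spread.

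**Figure D4:**
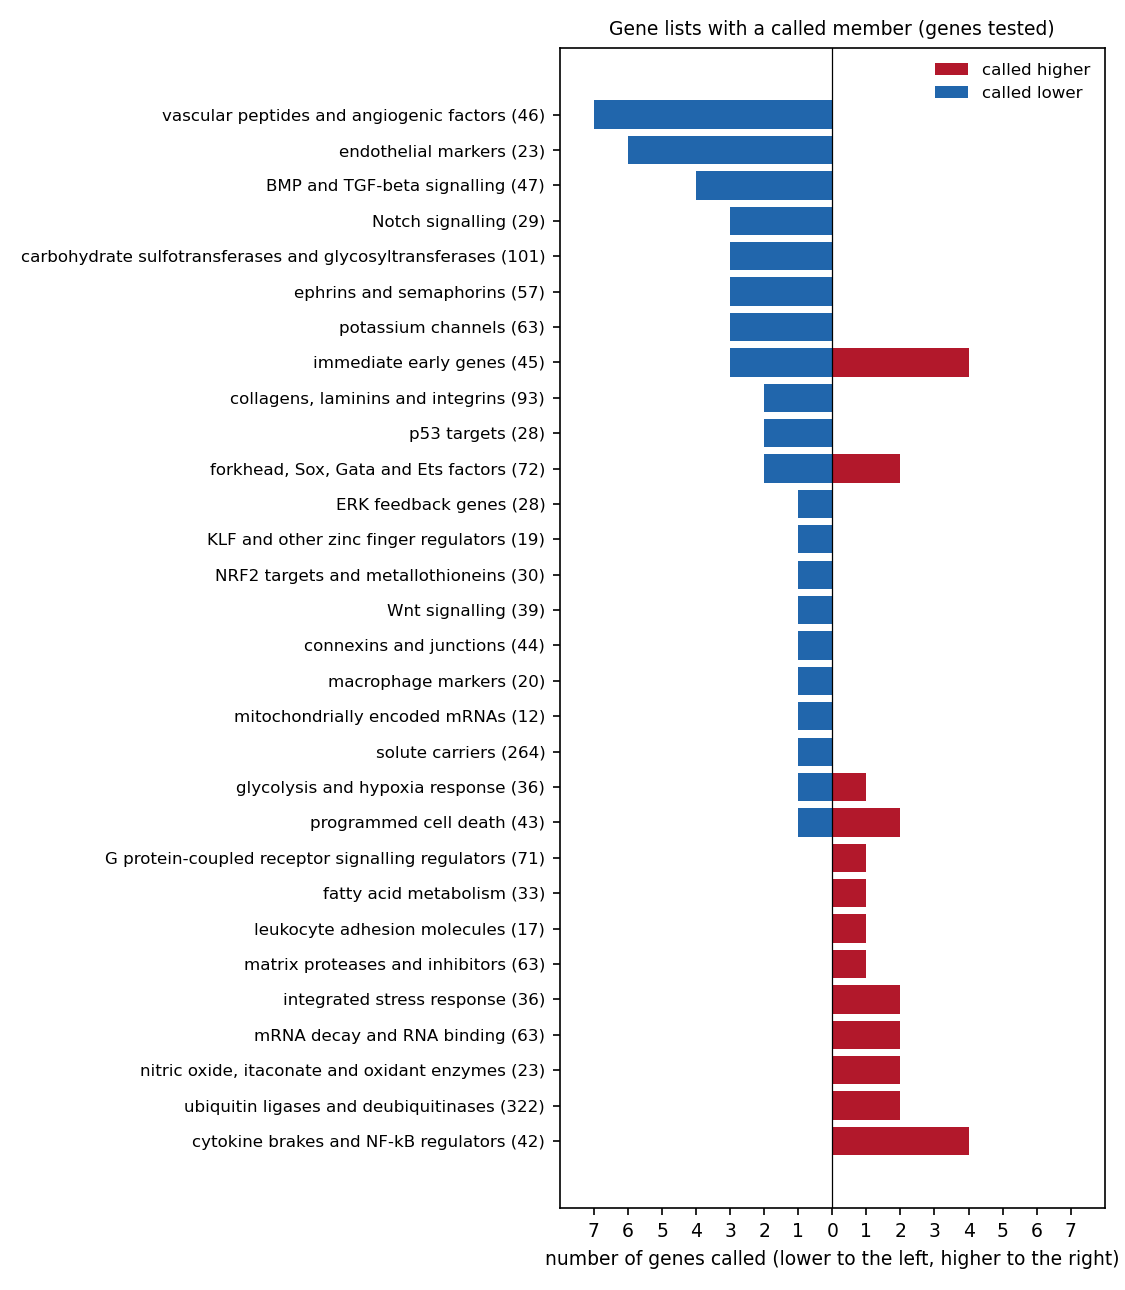
Number of genes that rose (red, to the right) and fell (blue, to the left) in each list with at least 1 call, with the number of genes tested in parentheses. Vascular peptides and angiogenic factors lead the falls with 7 of 46 and endothelial markers follow with 6 of 23, while cytokine brakes and NF-kB regulators, with 4 of 42, and immediate early genes, with 4 of 45, lead the rises; a gene can stand in more than 1 list.

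The rises and falls differed in what they started from. The rises outside the lists had a median of 6.5 CPM with DMSO and 25.5 CPM with DMXAA, and 12 of 67 were under 1 CPM with DMSO and 2 with DMXAA. The falls had a median of 20.7 CPM with DMSO and 7.59 CPM with DMXAA, against 13.5 and 13.8 CPM over all genes tested. These levels helped to decide which genes could pass, and they were not compared by a test. The rises outside the lists spanned a median of 14763 bases of genome with 5 exons, the falls 22618 bases with 8 exons and all genes tested 19120 bases with 6 exons. Protein-coding genes were 89.6% of these rises, 98.4% of the falls and 82.7% of all genes tested. The 2 DMXAA libraries differed by more than 2-fold in 1 of the 67 rises outside the lists, 4 of the 64 falls and 1321 of all 17055 genes tested. Agreement of the libraries within a group helped a gene to pass, so these counts are a description.

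These genes were next read in the knockout-labelled islets, whose libraries entered their choice through the low-count filter and the shared estimate of spread. There 64 genes (0.375%) were called with DMXAA in either direction, and 204 (1.2%) had a called difference between the effects of the 2 genotype labels. Of the 67 rises outside the lists 41 had a positive fold change in the knockout-labelled islets, with a median of 0.13, and 1 was called, Podxl. Ripk3 had a mean of 1.84 ± 0.602 CPM with DMSO there and 2.67 ± 0.131 CPM with DMXAA (SD, n = 2), a change of 0.56 ± 0.37, and Neurl3 11.2 ± 2.16 and 6.8 ± 0.591 CPM, a change of -0.71 ± 0.22. Podxl, in contrast, went from 43.8 ± 4.45 to 83.2 ± 2.53 CPM, a change of 0.93 ± 0.15 (adjusted p = 0.024), close to its wild-type change of 1.03. Plin2 changed by 0.83 ± 0.17 there and by 0.73 in the wild type, but was called only in the latter. For both genes the test of the difference missed the threshold (adjusted p = 0.927 and 0.94), which does not show that the effects were equal.

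Most of the falls had a fold change of the opposite sign in the knockout-labelled islets. A called difference between the 2 effects was found for 54 of the 64 falls and 24 of the 67 rises outside the lists; this count shares the wild-type libraries that chose the genes. Of the 64, 60 had a positive fold change there, with a median of 0.66, and 5 were called higher, namely Kcnj2, Thbs1, Kdr, Jag1 and Dlc1, the last named for this call. Kcnj2 went from 5.71 ± 0.789 to 23.7 ± 11.8 CPM (SD, n = 2), a change of 2.07 ± 0.33 (adjusted p = 0.0286), and Thbs1 from 126 ± 7.2 to 256 ± 53.4 CPM, a change of 1.02 ± 0.17 (adjusted p = 0.024). The summed level of the 64 genes was 3019 and 3210 CPM with DMSO against 3889 and 3411 CPM with DMXAA. Of the 64 genes, 44 had both knockout-labelled DMSO libraries below both wild-type DMSO libraries, against 3825 of all 17055 genes tested. Because the 64 were chosen partly on high wild-type DMSO values, that count is a description. The endothelial markers had a median of -0.41 in the wild type and 0.66 in the knockout-labelled islets and sums there of 1163 and 1046 CPM with DMSO against 1873 and 1724 CPM with DMXAA. The part of endothelial content in this difference was not tested. The 4 falls with a negative change in the knockout-labelled islets were mt-Nd4 (-0.56 ± 0.18), mt-Rnr2 (-0.83 ± 0.18), Mt2 (-0.94 ± 0.19) and Cxcr4 (-0.05 ± 0.17).

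**Figure D5:**
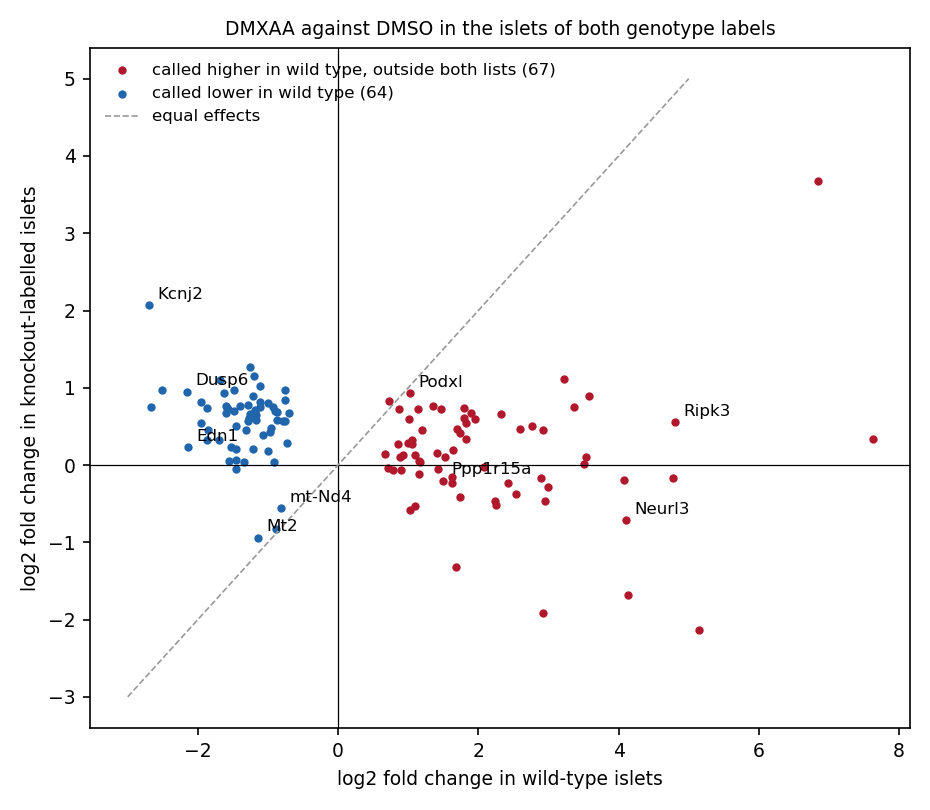
Log2 fold change of DMXAA over DMSO in knockout-labelled islets (y axis) against that in wild-type islets (x axis) for the 67 genes outside the lists that rose in the wild type (red) and the 64 that fell (blue); the dashed line marks equal effects. Most red points lie near 0 on the y axis, with a median of 0.13, and 60 of the 64 blue points lie above 0, with Kcnj2 the highest of them at 2.07.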

How the data were processed

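RNA of mouse islets was sequenced as libraries of polyadenylated RNA, 2 in each of 4 groups. The authors deposited raw counts per Ensembl gene for each library. The submitters' processing notes name HISAT2, HTSeq and mm10. No version of these, gene annotation or strand setting is given in the sources used here. Overlapping and antisense genes are therefore uncertain. Of 54532 gene identifiers, 54495 were found in GENCODE's annotation of mm10, which gave symbols and coordinates. No row without a gene entered the library totals.

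Genes low in every group were removed by edgeR's filter, which left 17055. Counts were scaled by TMM and fitted in all 8 libraries with 1 coefficient per group and 4 residual degrees of freedom, by edgeR 4.0.16 (robust quasi-likelihood F-test, R 4.3.3). P-values were adjusted by Benjamini-Hochberg over all genes tested, with a threshold of 0.05, and SE is that of the log2 fold change. DESeq2 1.42.0 and limma 3.58.1 (voom) were alternatives, beside other scaling, filters, designs and the omission of each library. An exact permutation test of 2 libraries against 2 cannot pass the threshold and was not used. The procedure was tested on simulated data.

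Named genes have an official symbol, reach 1 CPM on average in the 4 wild-type libraries, and show an adjusted p under 0.05 and groups that do not overlap. They are the 25 largest rises and 25 largest falls by fold outside the interferon and cytokine lists, the 10 largest of each by CPM, up to 4 called members per list, up to 5 of each excluded list, and 14 genes named whatever their result. Genes given as not called beside them, and the called genes Ace, Sgk1, Acer2, Fgd5, Apold1, Dlc1, Mlkl, Ifi35 and Samhd1, were taken from the lists or figures after their values were seen. The members and lists were chosen with earlier results of these data known, so the lists are descriptions. Members of the interferon and cytokine lists were not counted in any pathway list.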

Additional observations from a re-analysis of the deposited data

Results flagged for a closer look

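The effect of DMXAA differed between wild-type and knockout-labelled islets for 59 of the 90 named genes that changed outside the interferon and cytokine lists, by a test of the difference itself in the fit of all 8 libraries (edgeR, adjusted p under 0.05). Of all genes tested 1.2% had such a difference. The values below are the log2 fold change in knockout-labelled islets minus that in wild-type islets. A negative value beside a gene that rose means a lower fold change there. A positive value beside a gene that fell in the wild type means that it fell less, or was higher with DMXAA, in the knockout-labelled islets. The genes were chosen on the wild-type change, which is 1 side of each difference, and the difference was fitted under 1 setting only.

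Of the 50 named falls, 41 differed. The largest differences were 4.76 for Kcnj2, 3.48 for Apln, 3.42 for Chst1 and 3.10 for Dusp6. Among vascular peptides, their receptors and endothelial genes they were 2.37 for Edn1, 2.14 for Thbs1, 1.88 for Esm1, 1.71 for Kdr, 1.37 for Ednrb and 2.30 for Bdkrb2, and 2.50 for Sox18, 1.76 for Egfl7, 2.61 for Clec14a, 2.19 for Tmem204, 1.66 for Myct1, 1.45 for S1pr1, 1.35 for Epas1 and 2.18 for Exoc3l2. Notch, BMP and Wnt genes differed by 2.35 for Jag1, 1.69 for Dll4, 1.91 for Smad6, 1.82 for Acvrl1, 1.33 for Eng and 2.33 for Fzd4. Channels and glycan enzymes differed by 2.77 for Kcne3, 2.46 for Kcnk5 and 2.06 for Chst2. Myeloid genes differed by 2.32 for Csf2rb, 2.37 for Gpnmb, 1.89 for Itgax, 1.77 for Slc11a1 and 2.28 for Il7r. The remaining falls differed by 2.79 for Gja1, 2.56 for Gda, 2.17 for Plk2, 2.12 for Epha2, 1.94 for Tnfrsf10b, 1.86 for Sema6d, 1.59 for Ets1, 1.40 for Cxcr4 and 1.18 for Klf10.

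Of the 40 named rises, 18 differed, each with a lower log2 fold change in the knockout-labelled islets, where it was below 0 for several, among them Acod1 (-1.92), Neurl3 (-0.71) and Icam1 (-0.53). The differences were -4.84 for Acod1, -4.83 for Neurl3, -4.25 for Ripk3, -3.42 for Ccrl2, -3.40 for Themis2 and -3.28 for Socs1. Regulators and transcription factors followed with -3.05 for Tbx2, -2.69 for Tnfaip3, -1.78 for Nfkbia, -1.70 for Ppp1r15a, -1.22 for Zfp36 and -1.10 for Csrnp1. Genes of membranes, signalling and the cell skeleton gave -2.67 for Stx11, -2.60 for Rnd1, -2.26 for Plscr2, -2.10 for Marcksl1, -1.63 for Icam1 and -1.27 for Adcy4. The part of the tissue markers that moved with these labels, endothelial markers among them, was not tested.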

How the results depend on the processing

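Against 189 rises and 64 falls, DESeq2 called 227 rises and 101 falls, limma-voom 177 and 50, the older form of the quasi-likelihood fit 172 and 66, the acinar sum as a covariate 187 and 68, other scaling factors 191 and 61, no filter on low counts 225 and 96, a stricter filter 178 and 58, and the 4 wild-type libraries alone 145 and 28, which included 143 and 28 of the first set. Omission of 1 library at a time gave 126 to 536 rises and 20 to 458 falls. The falls numbered 42 without DMSO1, 458 without DMSO2, 20 without DMXAA1 and 32 without DMXAA2, of which 34, 60, 18 and 25 were among the 64; the cause was not tested. With a left-out library the lone sample of its group is assumed to vary like the other groups. Over the 112 named genes and 17 alternatives, 1620 of 1904 values kept their direction and side of the threshold, 283 fell short of the threshold, 1 passed it anew and 0 reversed.

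With the replicate number as a block, 214 rises and 85 falls were called, and 184 and 64 of the first set were kept. Deviations of same-numbered libraries correlated weakly, at 0.057 in the wild type and 0.055 in the knockout-labelled islets. These values cannot decide whether same-numbered libraries shared mice or a preparation, because a weak correlation can also occur in paired samples. The labels do not say how the libraries were numbered, so pairing is not known.

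The limits are 2 libraries per group, of unstated origin, and a spread of 17.1% between libraries (biological coefficient of variation). The spread within groups was uneven. Its chi-square per degree of freedom was 37.7 for wild-type DMSO, 12.2 for wild-type DMXAA, 6.93 for knockout-labelled DMSO and 55.5 for knockout-labelled DMXAA. The fit shared its estimate of spread over the groups, so the SE and p-values given do not follow these differences. Genes under 1 CPM rest on few counts.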
